A study of Mus musculus with 8 samples.

Results

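Granzymes and perforin are among the proteins with which natural killer (NK) cells kill. Their transcripts were followed here with 11 array probes for 10 genes (Gzma, Gzmb, Gzmc, Gzmd, Gzme, Gzmf, Gzmg, Gzmk, Gzmm and Prf1), out of 55681 probes and 20284 named genes on the array. A probe belonged to a gene when its RefSeq accession mapped to that symbol, and every such probe is given. RNA came from mouse spleen cells labelled as NK cells, sorted on eGFP made under the choline acetyltransferase (ChAT) reporter. The 4 ChAT_positive pools held cells with the reporter and the 4 ChAT_negative pools held cells without it, each pool being made from 2 to 4 mice. Strain, age and treatment are not in the labels, which also leave unsaid whether pools had mice in common, and the p-values then reflect only how far these samples spread, which may be technical. The comparison asks how the cytotoxic machinery of NK cells with the reporter differs in transcript level from that of NK cells without it. The reporter's own gene was measured in both groups: Chat was 2.15-fold higher in ChAT_positive pools (limma adjusted p = 0.0201), with a mean log2 signal of 3.75 against 2.65.

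Perforin and granzymes are stored together in the lytic granules of NK cells and cytotoxic T cells. On contact with a target the granule is released, perforin opens pores in the target membrane, and the granzymes, which are serine proteases, enter and cleave proteins inside. Granzyme B cuts after aspartate and activates caspases, granzymes A and K cut after basic residues, and granzyme M cuts after methionine or leucine. In the mouse the gene of granzyme B lies in a cluster on chromosome 14 with granzymes C to G, close relatives of one another that are known from activated lymphocytes and from NK cells of the pregnant uterus. Resting mouse NK cells are known to hold Gzmb and Prf1 transcript with little of the proteins. Transcript levels therefore say nothing direct about granule contents.

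RefSeq genes of assembly GRCm38.p6 put the coding genes of the cluster in the order Ctsg, Gzme, Gzmd, Gzmg, Gzmn, Gzmf, Gzmc and Gzmb. Gzma and Gzmk are neighbours on chromosome 13, and Gzmm and Prf1 lie apart on chromosome 10. RefSeq promoter windows of 300 bases, from 250 bases before to 50 after a gene's start, were found for all 10 genes (11 windows, since Gzmm has 2). The windows below are those of the 2 genes that passed the test described further on, Prf1 and Gzmd, of the nearest relative of Gzmd, and of Gzmb, printed 5′ to 3′ on the gene's strand (build GRCm38.p6). Capitals mark letters matching a RUNX (TGTGGT), STAT (TTCNNNGAA), AP-1 (TGANTCA) or T-box (GGTGTGA) motif on either strand, and no marked match overlaps another.
Prf1, chr10:61297586-61297885, plus strand: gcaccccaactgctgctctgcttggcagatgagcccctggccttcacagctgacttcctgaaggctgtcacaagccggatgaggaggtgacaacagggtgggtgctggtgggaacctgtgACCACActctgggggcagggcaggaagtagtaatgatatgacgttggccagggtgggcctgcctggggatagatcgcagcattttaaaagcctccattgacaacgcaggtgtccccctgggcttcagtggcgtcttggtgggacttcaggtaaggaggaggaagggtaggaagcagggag
Gzmb, chr14:56262285-56262584, minus strand: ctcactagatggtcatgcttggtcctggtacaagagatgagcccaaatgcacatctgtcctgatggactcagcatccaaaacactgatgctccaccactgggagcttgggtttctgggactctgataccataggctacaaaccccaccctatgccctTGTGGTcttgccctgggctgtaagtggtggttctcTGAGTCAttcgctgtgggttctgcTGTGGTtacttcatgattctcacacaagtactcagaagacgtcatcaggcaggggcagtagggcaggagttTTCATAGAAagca
Gzmd, chr14:56132544-56132843, minus strand: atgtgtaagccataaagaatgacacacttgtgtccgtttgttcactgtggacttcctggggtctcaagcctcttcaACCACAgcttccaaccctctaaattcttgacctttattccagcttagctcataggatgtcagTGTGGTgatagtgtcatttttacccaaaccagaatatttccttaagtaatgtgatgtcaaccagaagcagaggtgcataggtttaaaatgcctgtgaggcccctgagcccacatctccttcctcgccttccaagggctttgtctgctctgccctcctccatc
Gzme, chr14:56120576-56120875, minus strand: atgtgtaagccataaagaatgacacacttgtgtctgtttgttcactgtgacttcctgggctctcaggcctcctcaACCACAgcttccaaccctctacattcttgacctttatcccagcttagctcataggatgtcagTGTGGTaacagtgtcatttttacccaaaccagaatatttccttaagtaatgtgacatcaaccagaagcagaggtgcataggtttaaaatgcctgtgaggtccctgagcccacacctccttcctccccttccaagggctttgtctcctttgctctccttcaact
The Gzmd and Gzme windows share 281 of 300 bases (93.7% by global alignment), and pairs among Gzmc to Gzmg share between 81.3% and 93.7%, whereas Gzmb and Prf1 share 60.3% by the same alignment. The RUNX letters occur in a window of 9 of the 10 genes, all except Gzmk, against 16.8% of the 32851 promoter windows of the table. For Gzmc to Gzmg this is 2 matches each at like positions, so these 5 are not independent of one another. The AP-1 letters occur in Gzmb alone among the members (7.81% of all windows), the STAT letters in Gzmb and Gzmm (8.30%), and the T-box letters in Gzmk and Gzmm (3.98%). Members are counted by gene, over any of its windows, and the percentages by window. The RUNX and STAT letters of Gzmm lie in a different window from its T-box letters. A match of letters is a description of sequence and not a measured site.

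Values are log2 of the scanner's processed spot intensity minus the array's 75th percentile, so 0 is the 75th percentile of that array. Levels of different probes cannot be set against each other, because probes differ in brightness for the same amount of RNA. In these bulk pools fewer cells of a type and less RNA per cell cannot be told apart. Each group also had its own slide and scan, and these and the reporter group cannot be told apart either.

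All 11 probes had a lower mean in ChAT_positive than in ChAT_negative pools, as did 46.9% of all 13608 genes tested with limma. Each gene was tested by its brightest probe that stood well above background on 4 or more of the 8 arrays, and called at an adjusted p under 0.05 (Benjamini-Hochberg over all genes). Of the 10 genes, 9 passed that filter, all except Gzmg. Called lower were 2, Prf1 and Gzmd, where 3.15% of all genes tested were called lower and 5.96% in either direction. Of these 2, Prf1 was well above background on all 8 arrays, while Gzmd passed the filter through its ChAT_negative arrays. Called higher were 0 by limma, with 0 higher at an unadjusted p under 0.05, where 2.81% of all genes tested were called higher. At an unadjusted p under 0.05, 8 of the 9 were lower, against 11.9% of all genes. The groups did not overlap for 4 of the 9, Prf1, Gzmb, Gzmd and Gzmm, each lower in ChAT_positive pools, where 6.14% of all genes lay apart in that direction, 9.37% in the other and 15.5% in either. The median log2 fold change of the 9 was -0.62, beside 0.025 over all genes tested. When each probe was tested for itself, 0 of 10 tested member probes were called by limma, 9 being lower at an unadjusted p under 0.05, with a lowest adjusted p of 0.0645 for Gzmd, where 1.64% of 32087 probes were called lower and 1.46% higher. Gzmd and Prf1 thus passed the threshold among genes and missed it among probes.

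**Figure D1:**
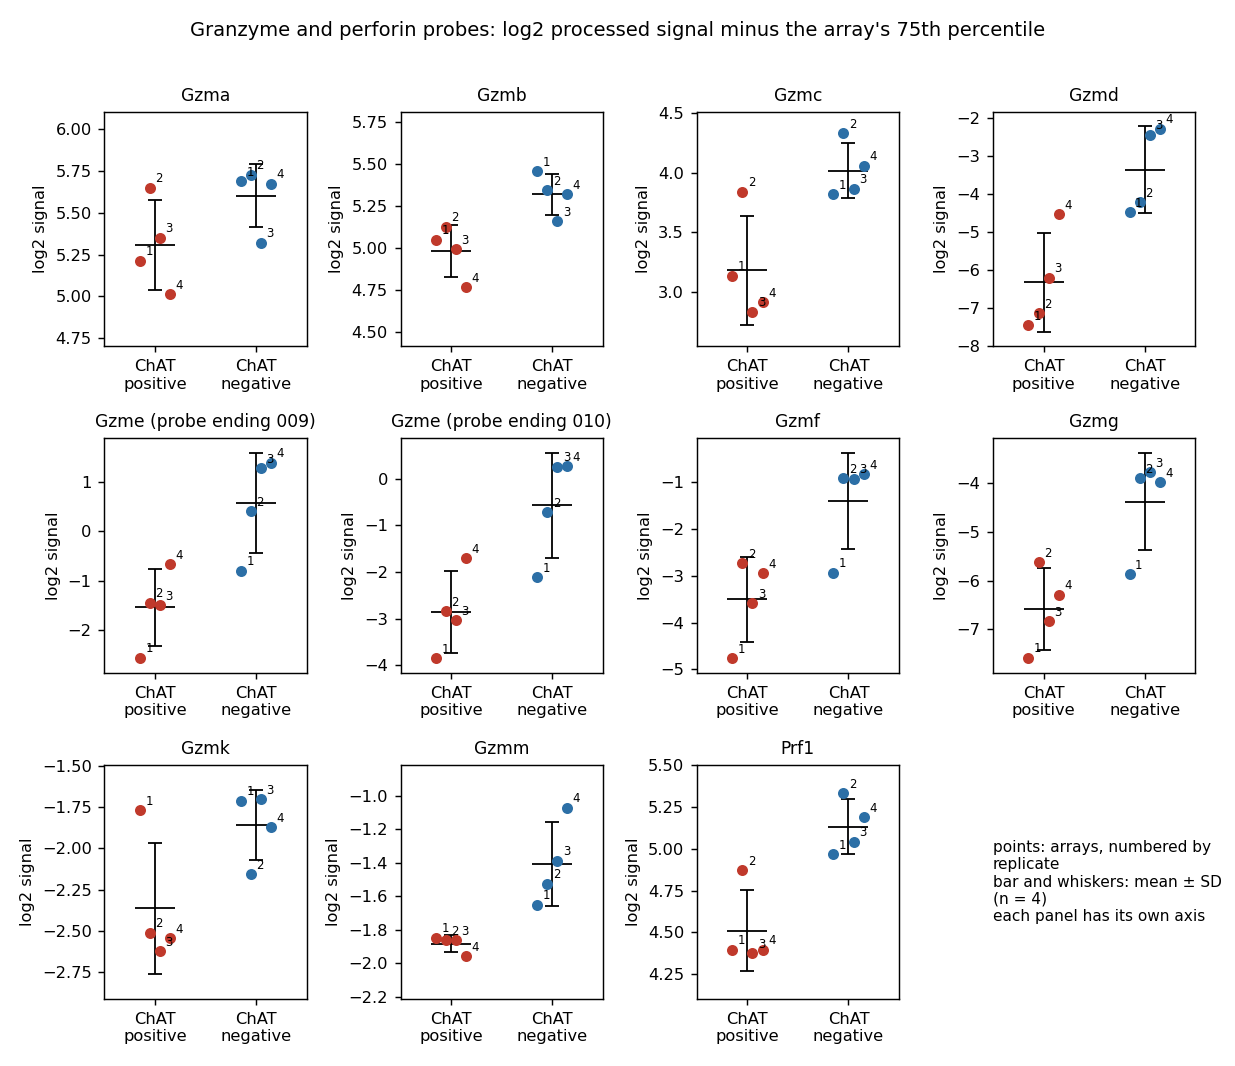
Each panel shows 1 probe, with the log2 processed signal minus the array's 75th percentile on the vertical axis and the 4 ChAT_positive (red) and 4 ChAT_negative (blue) arrays as points numbered by replicate, with the mean and SD. Prf1, Gzmb, Gzmd and Gzmm have groups that lie apart. ChAT_negative replicate 1 sits lowest of its group for Gzmd, Gzme, Gzmf and Gzmg, and also for Prf1, Gzmc and Gzmm.

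Prf1 encodes perforin, the pore-forming protein without which granzymes do not reach the target. Its log2 signal was 4.40, 4.87, 4.38 and 4.40 on ChAT_positive arrays 1 to 4 and 4.97, 5.33, 5.04 and 5.19 on ChAT_negative arrays 1 to 4. Each ChAT_positive array lay below each ChAT_negative array, with ChAT_positive replicate 2 the nearest to the other group. The means were 4.51 ± 0.24 (SD, n = 4) and 5.13 ± 0.16 (SD, n = 4), so Prf1 fell by 0.62 on the log2 scale (limma adjusted p = 0.0481, SE 0.15), a 1.54-fold difference with a 95% interval of 1.21 to 1.95. The transcript was plainly present in both groups, with unscaled intensities of 38282 to 55527 in ChAT_positive and 66576 to 102942 in ChAT_negative pools. The spot of ChAT_negative replicate 4 was marked as an outlier by the scanner software and kept, since the probe has no other. With 1 array left out the call held without ChAT_positive replicate 2 (adjusted p = 0.0245) and was lost without each of the other 7 (up to 0.132).

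Gzmb encodes granzyme B. Its log2 signal was 5.05, 5.13, 4.99 and 4.77 on the ChAT_positive arrays and 5.46, 5.34, 5.16 and 5.32 on the ChAT_negative arrays. The groups did not overlap, but ChAT_positive replicate 2 and ChAT_negative replicate 3 were almost level. The means were 4.98 ± 0.15 and 5.32 ± 0.12 (SD, n = 4 each), with a log2 fold change of -0.34 (SE 0.12) and an adjusted p of 0.138 by limma, so Gzmb was not called. The difference was 1.26-fold, with a 95% interval of 1.04 to 1.53.

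Gzma encodes granzyme A, a tryptase-like granzyme. It gave 5.21, 5.65, 5.35 and 5.01 on the ChAT_positive arrays and 5.69, 5.73, 5.32 and 5.67 on the ChAT_negative arrays. ChAT_negative replicate 3 was below 2 of the ChAT_positive arrays, and the groups overlapped. The log2 fold change was -0.30 (limma adjusted p = 0.301, SE 0.16), with a 95% interval from -0.67 to 0.075 that includes 0. Gzma and Gzmb were not shown to differ in their group difference. The group difference of Gzma was smaller in size than that of Gzmb by 0.041 on the log2 scale (SE 0.093, two-sided exact permutation p = 0.657, also 0.657 after adjustment over 5 gene pairs). That of Prf1 was lower than that of Gzmb by 0.28 (difference -0.28, SE 0.14), which the same test did not call (two-sided exact permutation p = 0.114, adjusted 0.143, where 4 against 4 arrays allow no p below 0.0286).

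Gzmm and Gzmk also had lower means in ChAT_positive pools. Gzmm, the gene of granzyme M, a protease typical of NK cells, was nearly constant among the ChAT_positive arrays at -1.85, -1.86, -1.86 and -1.96, and gave -1.65, -1.52, -1.39 and -1.07 on the ChAT_negative arrays. The groups did not overlap, and its log2 fold change of -0.47 (SE 0.14) had an adjusted p of 0.0808 by limma. Gzmk, the gene of granzyme K, gave -1.77, -2.51, -2.63 and -2.54 against -1.71, -2.16, -1.70 and -1.87. ChAT_positive replicate 1 lay among the ChAT_negative arrays, and the log2 fold change of -0.50 (SE 0.21) was not called by limma (adjusted p = 0.175).

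**Figure D2:**
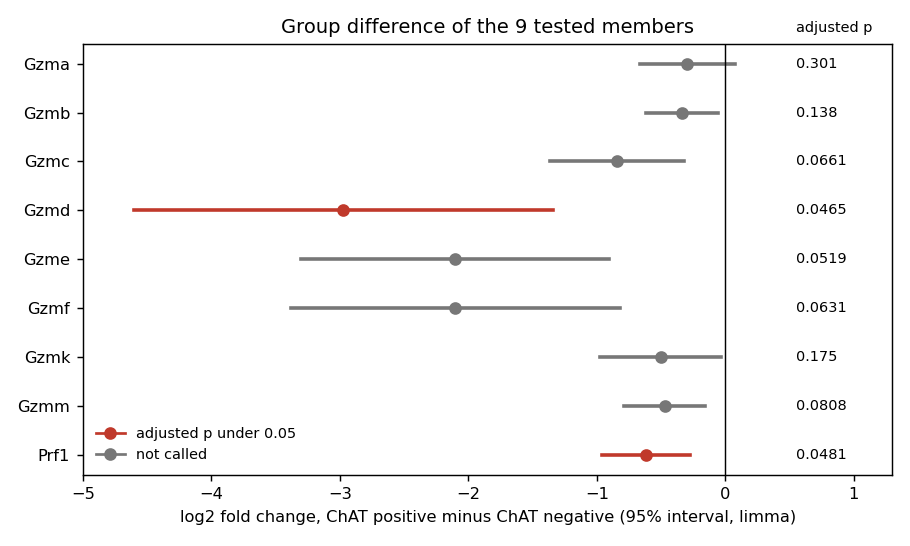
The horizontal axis is the log2 fold change of ChAT_positive minus ChAT_negative with its 95% interval from limma for the 9 tested genes, and the column at the right gives the adjusted p. All 9 points lie below 0, the intervals of Gzmd, Gzme and Gzmf are the widest, and those 2 in red, Prf1 and Gzmd, have adjusted p of 0.0481 and 0.0465.

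The genes of the chromosome 14 cluster other than Gzmb had group differences from -0.84 for Gzmc to -2.97 for Gzmd on the log2 scale. Gzmc, whose product kills without needing caspases, gave 3.13, 3.84, 2.83 and 2.91 on the ChAT_positive and 3.82, 4.33, 3.86 and 4.06 on the ChAT_negative arrays. Only ChAT_positive replicate 2 reached the ChAT_negative range, and the log2 fold change was -0.84 (limma adjusted p = 0.0661, SE 0.23). Without that array Gzmc was called, at -1.06 (limma adjusted p = 0.0171). Leaving out any other array gave no call of Gzmc (adjusted p up to 0.173).

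Gzme and Gzmf encode granzymes E and F, which share most of their sequence with granzymes D and G. The brighter Gzme probe gave -2.56, -1.44, -1.50 and -0.66 on the ChAT_positive and -0.79, 0.40, 1.27 and 1.39 on the ChAT_negative arrays. The second Gzme probe gave -3.85, -2.85, -3.03 and -1.71 against -2.11, -0.72, 0.25 and 0.27, so both probes ranked the arrays of each group alike. Their differences were -2.11 (limma adjusted p = 0.0519, SE 0.53) and -2.28 (SE 0.60, probe-level adjusted p = 0.0753), the former a 4.31-fold difference with a 95% interval of 1.88 to 9.89. Gzmf gave -4.76, -2.73, -3.58 and -2.95 against -2.93, -0.92, -0.93 and -0.83, a log2 fold change of -2.10 (limma adjusted p = 0.0631, SE 0.57). For both genes 1 array, ChAT_negative replicate 1, lay within the ChAT_positive range. Without it both were called (Gzme at -2.56 and Gzmf at -2.61, each with limma adjusted p = 0.0210). Leaving out any other array gave no call of either gene (adjusted p up to 0.128 for Gzme and 0.155 for Gzmf).

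Gzmd and Gzmg were at the edge of detection in ChAT_positive pools. The Gzmd probe passed the background limit on 1 of the 4 ChAT_positive arrays and on all 4 ChAT_negative arrays, at -7.45, -7.14, -6.20 and -4.52 against -4.47, -4.22, -2.44 and -2.28. The groups did not overlap, but ChAT_positive replicate 4 nearly reached ChAT_negative replicate 1. The gene passed the filter through the group where it was higher. The fitted difference of Gzmd was -2.97 on the log2 scale (limma adjusted p = 0.0465, SE 0.72), and -1.42 with normexp background correction (limma adjusted p = 0.0413). Its size is not a measured fold, since the ChAT_positive intensities were 12.5 to 115 and on 3 of those arrays not well above background. With 1 array left out the call held without ChAT_positive replicate 4 (adjusted p = 0.0317) or ChAT_negative replicate 1 (0.0448) and was lost without each of the other 6 (up to 0.119). The Gzmg probe passed that limit on 0 of the 4 ChAT_positive arrays and on 3 of the 4 ChAT_negative arrays, and Gzmg was not tested. For each ChAT_positive array the higher of the lowest signal well above background and the probe's own was taken. The mean of these lay 1.88-fold below the ChAT_negative mean of Gzmg. That mean includes ChAT_negative replicate 1, which was not well above background, so 1.88 is not a strict lower bound. The measured means of Gzmg were -6.58 in ChAT_positive and -4.38 in ChAT_negative pools. Since Gzmd to Gzmg are close relatives, their probes may share signal, and 4 separate genes cannot be counted.

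**Figure D3:**
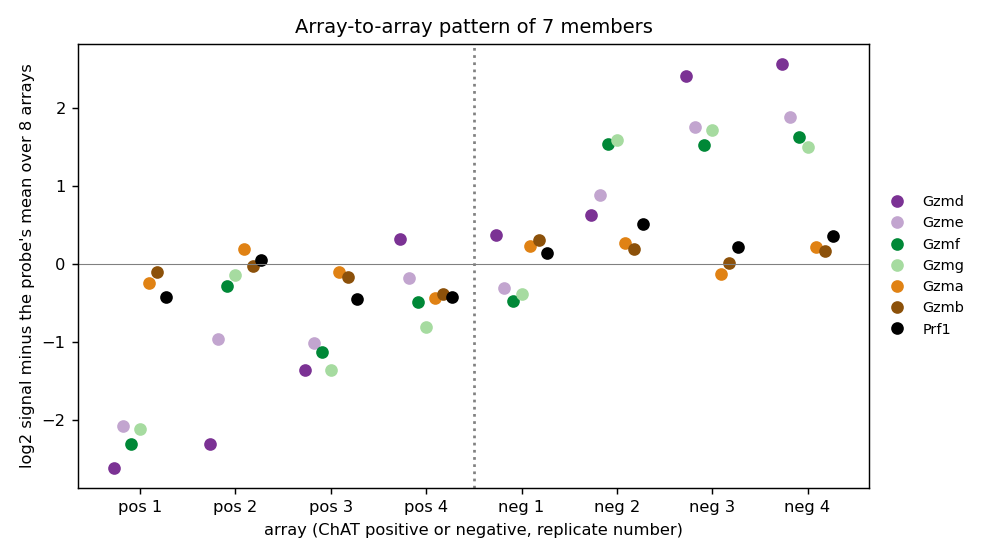
The vertical axis is the log2 signal of each of 7 members minus its own mean over the 8 arrays (the brighter probe for Gzme), and the horizontal axis gives the arrays by group and replicate number, with the groups parted by a dotted line. Gzmd, Gzme, Gzmf and Gzmg spread over several log2 units within each group and Gzme and Gzmf are lowest in replicate 1 of both, while points of Gzmd in ChAT_positive replicates 1 to 3 and of Gzmg in all ChAT_positive replicates and ChAT_negative replicate 1 were not well above background, and Gzma, Gzmb and Prf1 stay close to 0.

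Gzme and Gzmf, well above background on all 8 arrays, were lowest in replicate 1 within each group. Gzmd and Gzmg also had their lowest ChAT_negative signal in replicate 1, not well above background for Gzmg. Their ChAT_positive signals were mostly not well above background and have no order. Prf1, Gzmc and Gzmm were lowest in replicate 1 of the ChAT_negative group as well, but not of the ChAT_positive group. For Gzme the ChAT_negative SD was 1.01 and for Gzmf 1.02, against 0.12 for Gzmb. The group differences of Gzmc, Gzme and Gzmf were larger in size than that of Gzmb by 0.50, 1.77 and 1.76 on the log2 scale. Two-sided exact permutation tests of these differences gave p = 0.0857, 0.0571 and 0.0857, and 0.143 for each after adjustment over the 5 gene pairs compared, so the cluster genes were not shown to differ from Gzmb. With ChAT_negative replicate 1 left out, the difference for Gzmf was 2.32 in size (-2.32, two-sided exact permutation p = 0.0286, not adjusted). For this pair, leaving out any other array gave two-sided exact permutation p = 0.0857 to 0.143, also not adjusted. The lower value thus hangs on leaving out 1 array and does not show that Gzmf differs from Gzmb. The 3 pairs of Gzmc, Gzme and Gzmf with Gzmb were chosen after their values were seen.

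For Prf1 the tested genes whose arrays followed it most closely were Tubb6, a beta tubulin, 4930449I24Rik and Fcer1g, the signalling subunit shared by several Fc and NK receptors. The root mean square gap over the 8 arrays, after centring each gene on its own mean, was 0.061, 0.075 and 0.076 log2 units, where Prf1 itself had an SD of 0.38. For Gzmb they were Cd9, a tetraspanin, Ftl1, the ferritin light chain, and Agpat3, a phospholipid acyltransferase (0.039, 0.058 and 0.061, with an SD of 0.22). For Gzma they were Sec61b, a subunit of the translocon, Gimap6 and Atp5md (0.045, 0.054 and 0.057, with an SD of 0.27). The gap counts the group difference too, so these genes share it with the member by choice.

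Genes that make, load, release or restrain the granule were read from the same arrays. Of 35 tested genes of granule processing, packaging, exocytosis and granzyme inhibition, 2 were called lower and 0 higher (with an unadjusted p under 0.05 by limma, 1 lay higher and 9 lower), with a median log2 fold change of -0.13. Among processing genes, Cst7, the cystatin F gene whose product restrains granule cathepsins, fell by 0.77 (limma adjusted p = 0.0298, SE 0.16). Ctsc, the dipeptidyl peptidase that activates granzyme precursors, stood at 0.32 (adjusted p = 0.137), with all ChAT_positive arrays above all ChAT_negative ones, the opposite side from the granzymes. Igf2r, a mannose 6-phosphate receptor that carries granzymes to the granule, fell by 0.67 (limma adjusted p = 0.0439, SE 0.16). Srgn, the serglycin core protein that packs granzymes and perforin, was at -0.13 (adjusted p = 0.639).

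Of 16 tested exocytosis genes, 0 were called by limma (with an unadjusted p under 0.05, 0 lay higher and 2 lower), with a median of -0.067. Unc13d, which primes granules for fusion, was at -0.077 (adjusted p = 0.806), and Rab27a, which tethers them, at -0.11 (0.880). The 2 with the lowest adjusted p were Dock8, an actin regulator, at -0.60 (0.0808), and Sytl2, a Rab27 effector, at -0.79 (0.162). Of 4 tested inhibitors, 0 were called by limma (with an unadjusted p under 0.05, 0 lay higher and 1 lower). Serpinb9, which protects the killer cell from granzyme B, was at -0.40 (0.243), and Serpinb9b at -0.66 (0.0788). The calls of Cst7 and Igf2r were not stable: leaving out ChAT_positive replicate 1, 3 or 4 or ChAT_negative replicate 2, 3 or 4 took the number of called granule genes to 0, while 4 passed when ChAT_positive replicate 2 was left out and 5 when ChAT_negative replicate 1 was.

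Of 23 tested transcription factors that act on lymphocyte differentiation and cytotoxic genes, 1 was called lower and 0 higher (with an unadjusted p under 0.05 by limma, 0 lay higher and 5 lower), with a median of -0.15. That gene was Prdm1, which encodes Blimp-1, a factor of terminal effector differentiation. Its log2 signal averaged 0.57 ± 0.35 in ChAT_positive and 1.85 ± 0.36 in ChAT_negative pools (SD, n = 4 each), and it fell by 1.28 (limma adjusted p = 0.0196, SE 0.23). Tbx21, the T-bet gene, was at 0.018 (adjusted p = 0.953), Runx3 at -0.027 (0.929) and Eomes, the partner of T-bet, at -0.53 (0.133). The RUNX letters of the printed promoters thus stand beside a Runx3 level for which no difference was called, with no test of a link. With 1 array left out, 1 regulator was called each time except without ChAT_negative replicate 1, where 2 were.

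**Figure D4:**
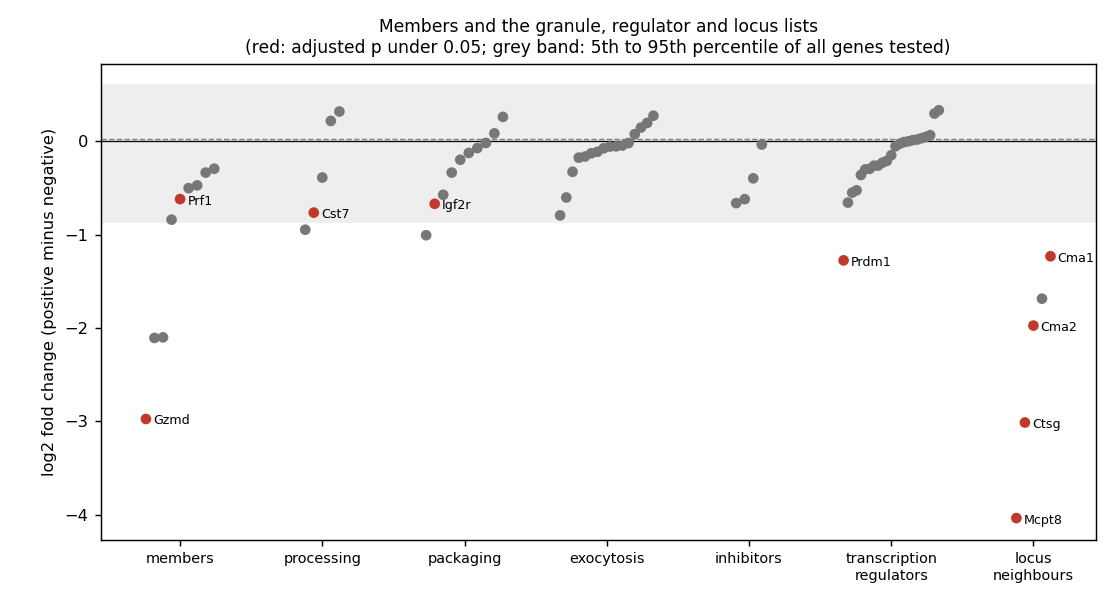
Each point is a tested gene, with its log2 fold change of ChAT_positive minus ChAT_negative on the vertical axis and its list on the horizontal axis. Red points have an adjusted p under 0.05 and are named, and the grey band spans the 5th to 95th percentile of all genes tested, from -0.87 to 0.60. Most granule and regulator genes lie inside the band, and Gzmd, Gzme, Gzmf and the locus neighbours lie below it.

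The granzyme cluster sits beside genes of mast cell and neutrophil proteases in the same locus. Of 9 such neighbours listed, 5 were tested, 4 were called lower and 0 higher (with an unadjusted p under 0.05 by limma, 0 lay higher and 4 lower). Mcpt8, a basophil protease, fell by 4.04 (SE 0.68, adjusted p = 0.0161). Ctsg, the neutrophil cathepsin G gene next to Gzme, fell by 3.01 (SE 0.69, adjusted p = 0.0393). Cma2 fell by 1.97 (adjusted p = 0.0300) and Cma1, a mast cell chymase gene, by 1.23 with overlapping groups (0.0486), while Mcpt2 was at -1.69 (0.239). The probes of Cma2 and Mcpt2 passed the background limit on 1 of the ChAT_positive arrays each, and got through the filter by their ChAT_negative arrays, so the sizes of their differences are uncertain. Gzmn was well above background on no array, and Mcpt1, Mcpt4 and Mcpt9 each on 3 ChAT_negative arrays and 0 ChAT_positive ones. Leaving out ChAT_positive replicate 1 or 2 took the calls to 2, leaving out ChAT_positive replicate 3 or 4 or ChAT_negative replicate 3 took them to 1, and leaving out ChAT_negative replicate 4 took them to 0.

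Markers of several cell types moved with these differences, and their part in them was not tested. NK markers averaged log2 signals of 2.01 to 2.62 on ChAT_positive and 2.75 to 3.06 on ChAT_negative arrays, with 3 of 13 called lower and 0 higher (with an unadjusted p under 0.05 by limma, 1 lay higher and 11 lower). Klrb1c, the NK1.1 gene, fell by 1.60, and Ncr1, the NKp46 gene, was at -0.66 (adjusted p = 0.122). ChAT_positive replicate 2 had the highest NK marker mean of its group, 2.62, and also the highest Prf1, Gzma, Gzmb and Gzmc signals. ChAT_negative replicate 2 had the highest Prf1, Gzma and Gzmc signals of its group. Its NK marker mean, 3.06, was the highest there, but replicate 4 was almost level at 3.05. Gzmb was instead highest (5.46) in ChAT_negative replicate 1, which had the lowest NK marker mean of that group, 2.75. Taken as a gap to the NK marker mean of the same array, a measure chosen after the values were seen, Prf1 lay at 2.30 ± 0.052 in ChAT_positive and 2.21 ± 0.057 in ChAT_negative pools (SD, n = 4 each), a group difference of 0.091 with overlapping groups. By that measure the group difference was 0.37 for Gzmb, 0.42 for Gzma, 0.21 for Gzmk, 0.24 for Gzmm and -0.13 for Gzmc. For Gzmd, Gzme and Gzmf it was -2.26, -1.40 and -1.39, with SDs within groups of 0.81 to 1.46. The groups overlapped for each tested member. The size for Gzmd is uncertain, since most of its ChAT_positive values were not well above background. The NK marker mean itself differed by -0.71 between the groups, without overlap. The difference of 0.091 for Prf1 was larger than the SD of either group. What these gaps reflect was not tested.

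Basophil and mast cell markers averaged -2.90 to -0.95 on ChAT_positive and 0.31 to 1.90 on ChAT_negative arrays, with 5 of 8 tested called lower and 0 higher (with an unadjusted p under 0.05 by limma, 0 lay higher and 8 lower). Mcpt8 and Cma1 are counted here and among the locus neighbours, so the calls are not separate. Cd200r3, a basophil receptor, stayed under the background limit on all 4 ChAT_positive arrays and was tested through the ChAT_negative ones. The array with the highest mean of that list, ChAT_negative replicate 1 at 1.90, had the lowest Gzmd, Gzme and Gzmf signals of its group. In the other group the array with the highest mean, ChAT_positive replicate 4 at -0.95, had the highest Gzmd and Gzme signals. Gzmf went the other way, being highest (-2.73) in ChAT_positive replicate 2, the array with the lowest mean, -2.90. Of neutrophil markers 2 of 8 were called lower (means of -2.61 to 0.52 against 0.097 to 2.02), of erythroid markers 2 of 5, of platelet markers 2 of 7 and of plasmacytoid dendritic cell markers 2 of 9. Among these calls, Retnlg of the neutrophil list and Klk1 of the dendritic list passed the background limit on 0 ChAT_positive and 4 ChAT_negative arrays, and were thus tested only through the group where they were higher. None of these lists had a marker called higher by limma, with 0, 0, 0 and 3 higher and 6, 3, 3 and 3 lower at an unadjusted p under 0.05.

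T cells are the other main source of granzyme transcripts. Of 12 T cell markers 0 were called by limma (with an unadjusted p under 0.05, 0 lay higher and 2 lower), with means of -0.40 to -0.016 on ChAT_positive and -0.14 to 0.15 on ChAT_negative arrays. Cd8a, which marks cytotoxic T cells, passed the background limit on all 4 ChAT_negative arrays and on 2 of the ChAT_positive ones. Of B cell markers 6 of 12 were called higher, with means of 1.95 to 2.33 against 1.19 to 1.56. Of markers of innate lymphoid and gamma delta T cells 6 of 11 were higher, with means of -0.49 to -0.068 against -1.85 to -1.71. Blk stood in the B cell list too and is counted among the calls of both. Of 7 tested monocyte and macrophage markers 0 were called by limma (with an unadjusted p under 0.05, 1 lay higher and 1 lower).

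**Figure D5:**
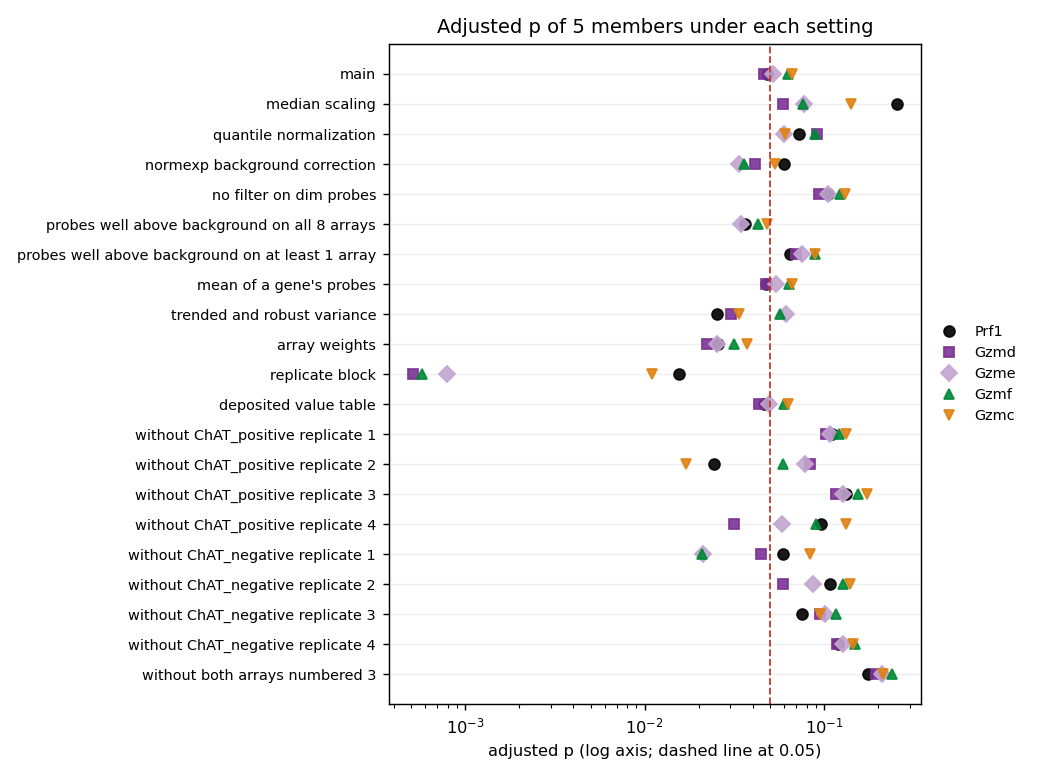
The horizontal axis, on a log scale, is the limma adjusted p of Prf1, Gzmd, Gzme, Gzmf and Gzmc under each processing setting or with arrays left out (vertical axis), with a dashed line at 0.05. The 5 genes lie between 0.0465 and 0.0661 with all arrays and the settings used in the text, and Prf1 reaches 0.255 under median scaling.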

How the data were processed

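The authors deposited 1-colour (Cy3) scanner files with spot intensities on a linear scale. Background was subtracted within each array by Feature Extraction 11.5.1.1 (Agilent), per the file headers. Their deposited table of log2 values differs from the scaled scanner values used here by a constant per array of at most 0.0065, and the probes behind its percentile are not stated. Per the labels, 100 ng of total RNA was amplified before labelling.

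Left out were control spots and 1344 spot values flagged as outliers, except 51 values of probes whose spots were all flagged. Between 50.2% and 63.2% of spots per array were well above background and 0 were saturated, and the number of arrays limits the precision. Symbols came from RefSeq accessions (26762 of 55681 probes named). Groups were compared with limma 3.58.1 in R 4.3.3, without a block. Tested on simulated data of these 4 against 4 arrays (200 of 13608 genes changed), the procedure recovered 69% of 2-fold and 95% of 4-fold changes, and 1.80% of its calls were false. In the data 811 genes were called, so these rates belong to the simulation and need not hold for the members. The members, gene lists and tests were chosen with earlier results of these data known. The text names all members, listed genes that were called or, in a list with none, the 2 with the lowest adjusted p, a set of granule and regulator genes whatever their values, and the 3 genes closest to each of Gzma, Gzmb and Prf1. Alternatives changed scaling, background correction (normexp on the median spot and background signals), filter, probe choice, variance model, weights, block, values, threshold and arrays. Slide and scan each held 1 group and could not be blocks.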

Additional observations from a re-analysis of the deposited data

Results flagged for a closer look

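Of 22 groups of 4 values (11 probes, 2 groups each), 6 held an array that stood apart by Dixon's test, where chance gives about 1 in 20. In ChAT_negative pools these were replicate 1 for Gzmf (-2.93) and Gzmg (-5.87) and replicate 3 for Gzma (5.32). In ChAT_positive pools they were replicate 2 for Prf1 (4.87), replicate 1 for Gzmk (-1.77) and replicate 4 for Gzmm (-1.96). The outlying arrays of Gzmf, Gzmg, Gzma, Gzmk and Prf1 lay on the side of the other group, and that of Gzmm away from it.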

How the results depend on the processing

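The log2 fold changes of the 9 tested members were below 0 in all 21 settings, that of the text included (20 for Gzmd, which a filter at all 8 arrays removes). Settings that changed only the filter, the variance model or the block left these estimates unchanged, so their sign could not turn. Probe choice altered only Gzme, and the deposited values differed only by a small constant per array. The calls of the members varied. The members called lower numbered 0 under median scaling (which moved the median of all genes from 0.025 to 0.24, and the calls over all genes from 383 higher and 428 lower to 211 and 119), quantile normalization, no filter on dim probes, a filter at 1 array or without both arrays numbered 3. Over all genes, 396 of 13608 were called lower under quantile normalization and 331 of 15529 with a filter at 1 array. With no filter it was 125 of 20284, and without both arrays numbered 3 it was 35 of 13608. Members called lower numbered 4 with a filter at all 8 arrays, 6 with array weights, and 6 at adjusted p under 0.1, where the genes called lower in all numbered 455, 639 and 836. With 1 array left out they numbered 0 to 3, where the genes called lower in all numbered 116 to 425, being 0 when ChAT_positive replicate 1 or 3, or any of ChAT_negative replicates 2, 3 and 4, was left out. The member probes called lower numbered 1 with a filter at all 8 arrays, 2 with a trended, robust variance, 4 with array weights, 6 at adjusted p under 0.1 and 0 to 3 with 1 array left out. Shares over all probes under these settings are not given here, so these counts do not speak of the members alone. The granule genes called lower numbered 5 under normexp and array weights, 6 with a trended, robust variance, 4 with a filter at all 8 arrays, 1 with a filter at 1 array, 7 at adjusted p under 0.1, and 0 under median scaling, no filter or without both arrays numbered 3, and 0 to 5 with 1 array left out. Genes called lower in all numbered 511 under normexp and 504 with a trended, robust variance. Counts within each list are to be read beside these totals. The regulators called lower numbered 0 with no filter or without both arrays numbered 3, and 1 to 2 with 1 array left out. The locus neighbours called lower numbered 2 under median scaling or no filter, 0 without both arrays numbered 3, and 0 to 3 with 1 array left out. The Gzma difference minus the Gzmb difference turned from 0.041 to -0.011 without both arrays numbered 3. With 1 array left out it ranged from -0.025 to 0.095, and the Prf1 difference minus the Gzmb difference from -0.38 to -0.22. The cause of these shifts was not tested.

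With the replicate number as a block, 5 members, 6 member probes, 7 granule genes and 2 regulators were called lower, and 1002 genes higher and 1340 lower in all. Whether the number pairs the samples is unsettled: the labels do not say, it is also the array position on the slide, and deviations of same-numbered arrays correlated at 0.54, 0.66 and 0.52 for numbers 1 to 3 and at 0.032 for number 4, whose arrays correlated best with number 3, so the block was not used. With it, Gzmc, Gzme and Gzmf were called as well as Prf1 and Gzmd (limma adjusted p = 0.0110, 0.000796 and 0.000576 for the first 3). Signal near background limits the sizes given for Gzmd and Gzmg, which without a filter was at -2.21 (limma adjusted p = 0.0984).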
